A study of Mus musculus with 10 samples.

Results

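The 6 Fc receptor genes described here were Fcgr1, Fcgr2b, Fcgr3, Fcgr4, Fcer1g and Fcgrt, out of 53379 genes counted in each of 10 RNA-seq libraries from dendritic cells of mouse spleen. They were chosen by gene name and family, with earlier results of these data known, and all 6 passed the filter on low counts that left 14528 genes to test. The libraries fell into 4 groups by the 2 names in their titles, a subset (CD11b or CD8) and a genotype of Atg16l1, a gene that attaches LC3 to the autophagosome membrane. Group CD11b KO (Atg16l1 -/-, n = 2) and group CD11b WT (Atg16l1 +/+, n = 3) carried the label CD11b, and group CD8 KO (Atg16l1 -/-, n = 2) and group CD8 WT (Atg16l1 +/+, n = 3) carried the label CD8. All mice were C57BL/6 and 16 weeks old, and the series title places them in a mouse model of atherogenesis. What made the model, the deleted part of Atg16l1 and any Cre line are not given in the sources used here. Per the labels' protocols, single spleens were digested with enzymes, CD11c-bearing cells were selected magnetically, and those high in CD11c and MHC class II were then sorted into a CD11b+CD8- gate and a CD11b-CD8+ gate. The labels do not say whether libraries that share a replicate number came from the same mouse.

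The subset labels ran opposite to the marker genes Cd8a, Xcr1, Clec9a, Itgam, Sirpa and Irf4 in 10 of 10 libraries. Cd8a was at 448 to 578 CPM (counts relative to the TMM-scaled total of a library) in the 5 libraries labelled CD11b, against 0.905 to 5.87 CPM in the 5 labelled CD8. Xcr1, a chemokine receptor of CD8-positive dendritic cells, was at 290.0 to 442 CPM under the label CD11b, against 7.14 to 11.3 CPM at the label CD8, and Clec9a at 541 to 667 CPM against 25.5 to 40.8 CPM. Itgam, which encodes CD11b, was at 1.58 to 2.73 CPM under the label CD11b, against 76.1 to 104 CPM at the label CD8. Sirpa was at 23.9 to 29.2 CPM against 553 to 629 CPM, and Irf4 at 30.3 to 43.8 CPM against 169 to 350.1 CPM, in the same order. Of 16 listed markers of CD8-positive dendritic cells, 16 were higher at the label CD11b in each genotype (edgeR, adjusted p under 0.05). Of 16 listed markers of CD11b-positive dendritic cells, 14 were lower there in KO and 15 in WT, and 1, Notch4, was higher in both. Over all genes 12.5% were lower and 10.3% higher in KO, and 15.7% and 13.8% in WT. The libraries are therefore named by their label throughout ("the library labelled CD11b"). Each direction between subsets is that of the labels, with the marker levels, Notch4 apart, running the other way. The genotype labels and Atg16l1 pointed the same way, with 1.73 to 3.31 CPM in the 4 KO libraries, against 13.3 to 32.7 CPM in the 6 WT libraries. Gene counts per library were 9467704 to 13768884.

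Fc receptors bind the constant part of antibodies. The activating IgG receptors Fcgr1 (high affinity), Fcgr3 and Fcgr4 sit in the membrane with the common gamma chain encoded by Fcer1g, whose ITAM recruits the kinase Syk, while Fcgr2b carries an inhibitory ITIM of its own and recruits the phosphatase encoded by Inpp5d. Fcgrt encodes the neonatal Fc receptor, a relative of MHC class I that pairs with beta-2-microglobulin inside the cell, saves IgG and albumin from degradation and takes part in handling of antigen bound to IgG. Dendritic cells use these receptors to take up antigen in immune complexes.

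Of the 6 genes, 4 lie within one stretch of chromosome 1 in GRCm38. Fcgr2b (ENSMUSG00000026656) spans chr1:170958617-170976547 on the minus strand, Fcgr4 (ENSMUSG00000059089) chr1:171018920-171029761 on the plus strand, Fcgr3 (ENSMUSG00000059498) chr1:171051174-171064935 on the minus strand and Fcer1g (ENSMUSG00000058715) chr1:171229572-171234365 on the minus strand. Fcgr1 (ENSMUSG00000015947) lies at chr3:96282909-96293969 and Fcgrt (ENSMUSG00000003420) at chr7:45092990-45103851, both on the minus strand.

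Fcgr2b and Fcgr3 share sequence, which bears on what their counts can hold. Their longest identical coding stretch is 129 bases, at coding positions 278 to 406 of Fcgr2b and 263 to 391 of Fcgr3 (counted from 1 at the start codon), and it is shown in full because a read inside it could not be given to either gene:
Fcgr2b and Fcgr3: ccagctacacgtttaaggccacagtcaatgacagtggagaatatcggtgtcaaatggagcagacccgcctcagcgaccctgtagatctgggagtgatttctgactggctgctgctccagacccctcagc
Of all 50-base windows in the transcripts of Fcgr3, 9.58% also occurred in Fcgr2b, and 2.92% of those of Fcgr2b occurred in Fcgr3. At 100 bases these shares were 2.54% and 0.753%, and no other pair among the 6 genes shared a window of 50 bases. Reads that mapped to more than 1 place were not counted, so the values of Fcgr2b and Fcgr3 rest on the parts that differ. The files' strand column set apart 2 antisense neighbours, Gm38204 at Fcgr2b (8 counts over all libraries) and Gm45669 at Fcgrt (56 counts).

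The windows from 250 bases before to 50 bases after the start site (RefSeq, GRCm38.p6) are shown for Fcer1g, Fcgr4 and Fcgr1, which were lower at the label CD11b, and for Fcgrt, which was higher there. They are Fcer1g at chr1:171234300-171234599 (minus strand), Fcgr4 at chr1:171018676-171018975 (plus), Fcgr1 at chr3:96293920-96294219 (minus) and Fcgrt at chr7:45103773-45104072 (minus). Capitals mark AGGAAG or its reverse complement CTTCCT, the core letters bound by PU.1 type ETS factors, and TTCNNNGAA, the letters of a GAS element:
Fcer1g: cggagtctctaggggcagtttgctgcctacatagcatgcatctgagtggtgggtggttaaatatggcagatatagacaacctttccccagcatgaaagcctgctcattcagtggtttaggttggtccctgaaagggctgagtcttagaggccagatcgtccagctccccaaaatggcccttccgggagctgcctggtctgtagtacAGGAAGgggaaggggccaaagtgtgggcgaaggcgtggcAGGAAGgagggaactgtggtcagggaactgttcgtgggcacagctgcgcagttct
Fcgr4: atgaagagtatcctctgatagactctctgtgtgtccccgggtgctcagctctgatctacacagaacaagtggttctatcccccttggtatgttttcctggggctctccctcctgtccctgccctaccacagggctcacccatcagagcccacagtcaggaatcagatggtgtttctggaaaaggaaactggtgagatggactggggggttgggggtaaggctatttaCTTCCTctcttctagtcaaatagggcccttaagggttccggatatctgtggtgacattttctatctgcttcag
Fcgr1: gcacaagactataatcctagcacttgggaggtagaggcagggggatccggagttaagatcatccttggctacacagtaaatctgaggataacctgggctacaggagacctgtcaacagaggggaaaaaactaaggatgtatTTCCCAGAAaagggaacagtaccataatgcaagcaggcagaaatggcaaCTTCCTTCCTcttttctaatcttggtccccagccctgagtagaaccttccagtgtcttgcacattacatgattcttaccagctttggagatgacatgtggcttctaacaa
Fcgrt: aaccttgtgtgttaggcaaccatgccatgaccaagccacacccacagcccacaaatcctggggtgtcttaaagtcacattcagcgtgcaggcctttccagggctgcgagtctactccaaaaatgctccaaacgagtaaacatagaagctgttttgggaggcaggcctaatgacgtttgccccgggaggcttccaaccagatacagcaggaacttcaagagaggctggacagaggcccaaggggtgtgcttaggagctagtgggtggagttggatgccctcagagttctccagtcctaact
AGGAAG on either strand occurred in the windows of Fcer1g (2 matches), Fcgr1 (2, which overlap), Fcgr3 (1) and Fcgr4 (1), and not in those of Fcgr2b and Fcgrt. It occurred in 35.4% of all 32851 windows of this length. TTCNNNGAA occurred in the window of Fcgr1 alone among the 6 genes, at 109 to 101 bases before the start site, and in 8.3% of all windows. GGAA and GAAA with 2 bases of any kind between them, the letters of an ETS-IRF composite element, stood on the opposite strand of the Fcgr2b window (2.72% of all windows on either strand), and GAAA and GAAA in that spacing, letters of an interferon response element, in that of Fcgr4 (3.44%). These motifs were chosen after the sequences were seen, and a match describes letters and not a bound site.

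Between the subset labels, all 6 genes differed in both genotypes (edgeR's quasi-likelihood test, Benjamini-Hochberg adjusted p under 0.05 over 14528 genes). The gamma chain gene Fcer1g, the activating receptor genes Fcgr1, Fcgr3 and Fcgr4 and the inhibitory Fcgr2b were lower at the label CD11b than at the label CD8, and Fcgrt was higher. Fcgr1 held 0 to 6 counts in each library labelled CD11b, so it passed the filter only through the libraries labelled CD8. For such a gene the filter fixed the direction in advance. The background was wide: 22.8% of all genes were called between the labels in KO libraries and 29.5% in WT libraries, of which 12.5% and 15.7% were lower at the label CD11b and 10.3% and 13.8% higher. The median log2 fold change, label CD11b over label CD8, was -3.06 over the 6 genes in KO and -3.04 in WT, beside -0.01 and 0.00 over all genes. In these bulk samples, fewer cells of a type and less RNA per cell cannot be told apart.

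**Figure D1:**
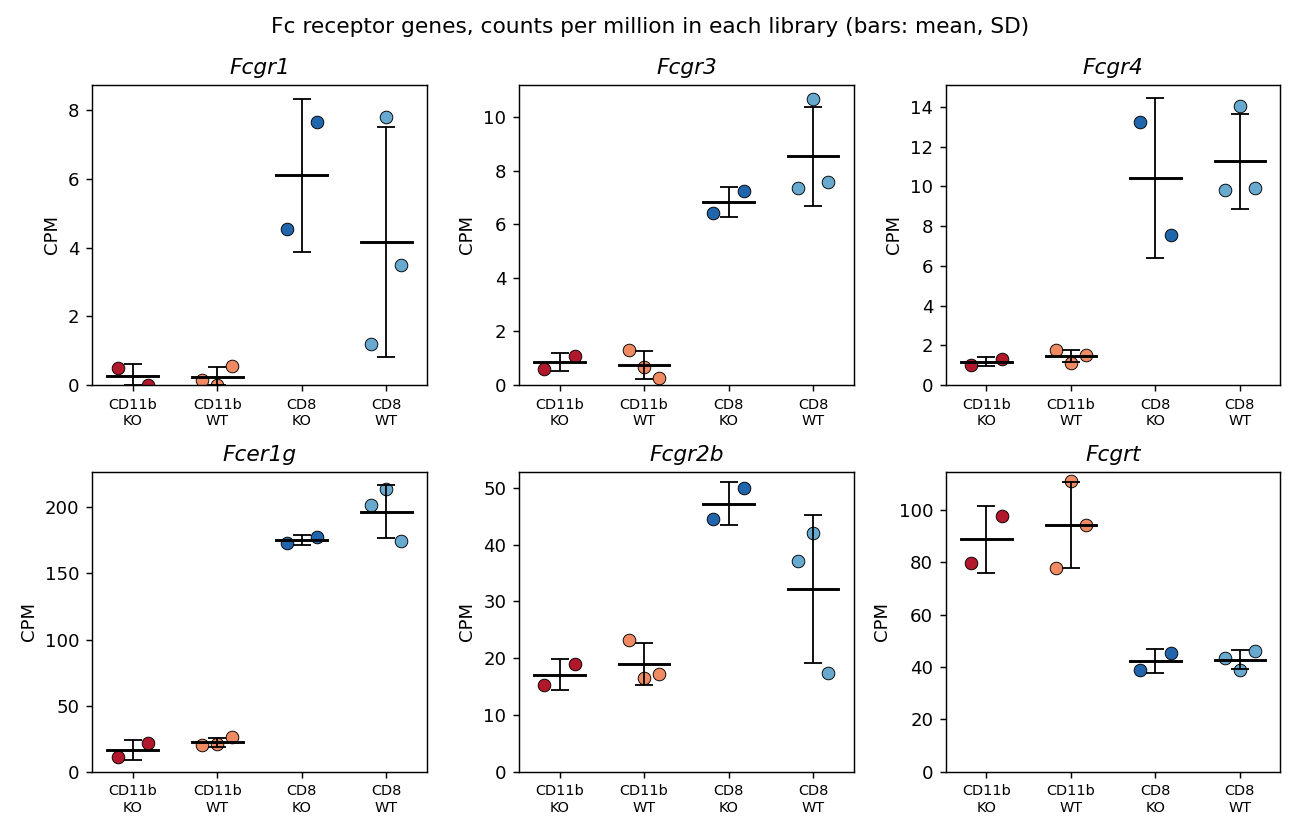
CPM of the 6 Fc receptor genes (1 panel per gene, y axis from 0) in each library of the 4 groups; points are libraries, long bars the mean and short bars the SD (n = 2 or 3, cut at 0 in the panel of Fcgr1). Fcer1g sits between 11.3 and 26.4 CPM in libraries labelled CD11b and between 173 and 214 CPM in those labelled CD8, and Fcgrt runs the other way.

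Fcer1g, the shared signalling chain, stood far apart between the labels. It had 11.3 and 21.9 CPM in CD11b KO libraries, against 173 and 178 CPM in CD8 KO libraries. It had 20.1, 21.0 and 26.4 CPM in CD11b WT libraries, against 201.5, 214 and 175 CPM in CD8 WT libraries. The groups did not overlap, and the lowest library labelled CD8 was several times above the highest one labelled CD11b. The log2 fold change, label CD11b over label CD8, was -3.39 ± 0.21 in KO (SE, adjusted p 1.98e-11, edgeR) and -3.13 ± 0.17 in WT (adjusted p 7.22e-13), which is 8.76-fold lower in WT.

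Fcgr4, an activating receptor that binds mouse IgG2a and IgG2b, followed the same order at a lower level. It had 1.01 and 1.33 CPM in CD11b KO libraries, against 13.3 and 7.58 CPM in CD8 KO libraries. It had 1.75, 1.13 and 1.49 CPM in CD11b WT libraries, against 9.83, 14.0 and 9.94 CPM in CD8 WT libraries. No library labelled CD11b reached any labelled CD8, and the log2 fold change was -3.13 ± 0.51 in KO (SE, adjusted p 4.88e-05, edgeR) and -2.94 ± 0.41 in WT (adjusted p 3.67e-06).

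Fcgr3, the low-affinity activating receptor, was low at the label CD11b. It had 0.606 and 1.08 CPM in CD11b KO libraries, against 6.42 and 7.23 CPM in CD8 KO libraries. It had 1.29, 0.679 and 0.279 CPM in CD11b WT libraries, against 7.34, 10.7 and 7.57 CPM in CD8 WT libraries. The groups did not overlap, and the values at the label CD11b rest on 3 to 17 counts a library. The log2 fold change was -2.98 ± 0.65 in KO (SE, adjusted p 0.00121, edgeR) and -3.47 ± 0.53 in WT (adjusted p 1.64e-05); without library CD11b WT 1 the value in WT was -4.09 (adjusted p 1.37e-05).

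Fcgr1, the high-affinity activating receptor, had the fewest counts of the 6 genes. It had 0.505 and 0 CPM in CD11b KO libraries, against 4.53 and 7.66 CPM in CD8 KO libraries. It had 0.152, 0 and 0.558 CPM in CD11b WT libraries, against 1.19, 7.79 and 3.50 CPM in CD8 WT libraries. The highest library labelled CD11b held 6 counts, and the 2 libraries with none, CD11b KO 2 and CD11b WT 2, allow up to 0.25 and 0.226 CPM by a floor of 3 counts, which covers counting error only. CD8 WT 1, at 11 counts, was the lowest library labelled CD8 and still above all labelled CD11b. The log2 fold change was -4.62 ± 1.21 in KO (SE, adjusted p 0.00652, edgeR) and -4.15 ± 0.98 in WT (adjusted p 0.00192). The call in KO was lost without CD11b KO 2 (-3.57, adjusted p 0.0762) and without CD8 KO 2 (adjusted p 0.0508), and without CD11b KO 1 that group held no count, so its fitted value of -9.14 (adjusted p 0.00575) is no measure of size. In WT the value was -3.56 without CD11b WT 2, -5.59 without CD11b WT 3 and -3.30 without CD8 WT 2, all called. With limma-voom the value in KO was -5.40 (adjusted p 0.0322).

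Markers of red pulp macrophages and monocytes, cells that also carry these activating receptors, differed between the labels, and not all in 1 direction. The 15 macrophage markers summed to 272 and 324.5 CPM in CD11b KO libraries and 270 to 306 CPM in CD11b WT libraries, against 688 to 692 CPM in CD8 KO and 493 to 615.5 CPM in CD8 WT libraries. Of these, 14 or 15 had counts at the label CD11b and 15 at the label CD8. In KO 10 of 15 were lower at the label CD11b and 0 higher, and in WT 10 were lower and 1, Hmox1, higher. Over all genes 12.5% were lower and 10.3% higher in KO, and 15.7% and 13.8% in WT. The 12 monocyte markers summed to 2624 to 3009 CPM under the label CD11b, against 3216 to 4387 CPM at the label CD8, with 10 to 12 and 11 or 12 of them above 0. Most of that sum was Nr4a1, at 2174 to 2544 CPM against 2472 to 3593 CPM. Of 11 tested monocyte markers, 5 were lower in KO and 6 in WT, and 2, Cd14 and Treml4, were higher in both (log2 fold changes of 0.85 and 1.88 in KO and 0.77 and 1.78 in WT). Neutrophil markers (10) summed to 1.43 to 4.25 CPM against 16.3 to 20.9 CPM, with 2 or 3 and 5 or 6 above 0. S100a8 held 2 counts over all 10 libraries, while Ltf held 0 counts in CD11b KO and 26 in CD8 KO libraries. Of 3 tested neutrophil markers, 1 (Csf3r) was lower in KO and 2 (Csf3r and Ltf) in WT, with 0 higher. NK cell markers (12) summed to 2.64 to 8.33 CPM against 8.99 to 28.8 CPM, with 3 to 7 and 7 to 9 above 0 and Klra8 at 0 throughout. Of 5 tested NK cell markers, 1 (Il2rb) was lower in each genotype and 0 were higher. The part of these cells in the levels of Fcgr1, Fcgr3, Fcgr4 and Fcer1g was not tested.

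Fcgr2b, the inhibitory receptor, differed less between the labels than the activating genes and varied most within CD8 WT. It had 15.2 and 19.0 CPM in CD11b KO libraries, against 44.6 and 49.9 CPM in CD8 KO libraries. It had 23.2, 16.6 and 17.2 CPM in CD11b WT libraries, against 37.0, 42.1 and 17.4 CPM in CD8 WT libraries. The groups were apart in KO and overlapped in WT, where CD8 WT 3 lay among the libraries labelled CD11b. The log2 fold change was -1.46 ± 0.30 in KO (SE, adjusted p 0.000669, edgeR) and -0.76 ± 0.24 in WT (adjusted p 0.02). The call in WT was lost without CD11b WT 2 (adjusted p 0.0707), without CD11b WT 3 (adjusted p 0.0748), without CD8 WT 1 (adjusted p 0.0823) and without CD8 WT 2 (-0.50, adjusted p 0.187).

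B cells carry Fcgr2b as their IgG receptor, and B cell markers also moved with the labels. The 15 markers summed to 287.5 and 630 CPM in CD11b KO libraries and 290.4 to 376 CPM in CD11b WT libraries, against 1051 and 2845 CPM in CD8 KO libraries and 584 to 1183 CPM in CD8 WT libraries. Of these, 13 or 14 had counts at the label CD11b and 15 at the label CD8. Of the 14 tested, 13 were lower at the label CD11b in KO and 9 in WT, with 0 higher. The shares over all genes were 12.5% lower and 10.3% higher in KO, and 15.7% and 13.8% in WT. At the label CD8, the B cell sum stood at 1051 CPM beside 44.6 CPM of Fcgr2b in CD8 KO 1, at 2845 beside 49.9 CPM in CD8 KO 2, at 1183 beside 37.0 CPM in CD8 WT 1, at 770.2 beside 42.1 CPM in CD8 WT 2 and at 584 beside 17.4 CPM in CD8 WT 3. CD8 KO 2 was highest and CD8 WT 3 lowest in both, while CD8 WT 1 had the second largest sum and the second lowest value of Fcgr2b. Without CD8 KO 2 and CD11b WT 1 all 6 Fc receptor genes kept their direction between the labels in both genotypes. The libraries labelled CD8 that remained had B cell sums of 584 to 1183 CPM, so that fit cannot separate the part of B cells. The part of B cells in the level of Fcgr2b was not tested.

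**Figure D2:**
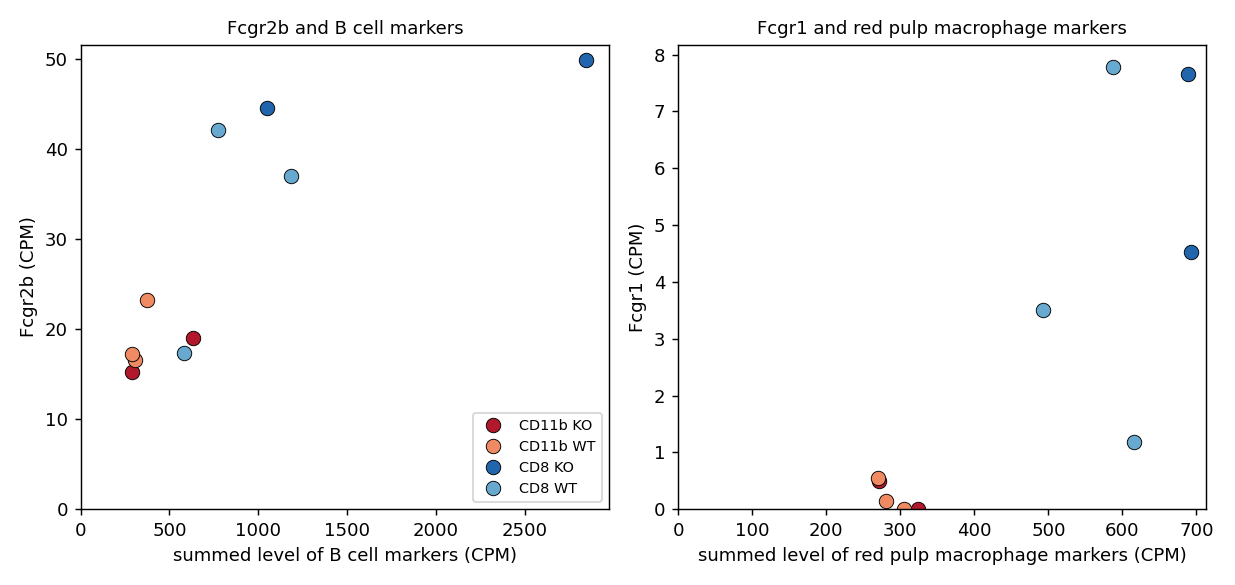
Left, Fcgr2b (CPM, y axis) against the summed level of 15 B cell markers (CPM, x axis); right, Fcgr1 (CPM) against the summed level of 15 red pulp macrophage markers (CPM), with 1 point per library coloured by group. On the right, libraries labelled CD11b lie below those labelled CD8 on both axes. On the left the labels overlap on both axes. There CD11b KO 2 has 630 CPM of B cell markers and CD11b WT 1 has 23.2 CPM of Fcgr2b, against 584 and 17.4 CPM in CD8 WT 3. CD8 KO 2 stands at 2845 CPM of B cell markers with 49.9 CPM of Fcgr2b, and CD8 WT 1 combines 615.5 CPM of macrophage markers with 1.19 CPM of Fcgr1.

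Fcgrt, the neonatal Fc receptor gene, ran against the other genes. It had 79.8 and 97.8 CPM in CD11b KO libraries, against 38.95 and 45.5 CPM in CD8 KO libraries. It had 78.1, 111 and 94.2 CPM in CD11b WT libraries, against 43.6, 38.9 and 46.0 CPM in CD8 WT libraries. The groups did not overlap. Its log2 fold change was 1.07 ± 0.17 in KO (SE, adjusted p 3.89e-05, edgeR) and 1.14 ± 0.14 in WT (adjusted p 7.34e-07), or 2.11-fold and 2.20-fold higher at the label CD11b. B2m, whose product is the light chain of the neonatal Fc receptor and of MHC class I, was at 770 to 1048 CPM under the label CD11b, against 1108 to 1236 CPM at the label CD8. B2m thus fell, by 0.45 in KO (adjusted p 0.00499, edgeR) and by 0.36 in WT (adjusted p 0.00391) on the log2 scale, while Fcgrt rose.

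Per length, the genes took a different order under each label. In CPM per kilobase of exon, the means at CD11b KO and CD11b WT were 42.3 and 44.9 for Fcgrt, 19.0 and 25.8 for Fcer1g, 2.96 and 3.28 for Fcgr2b, 0.932 and 1.16 for Fcgr4, 0.486 and 0.432 for Fcgr3 and 0.0975 and 0.0914 for Fcgr1. At CD8 KO and CD8 WT they were 200.6 and 225 for Fcer1g, 20.1 and 20.4 for Fcgrt, 8.30 and 8.97 for Fcgr4, 8.16 and 5.56 for Fcgr2b, 3.93 and 4.92 for Fcgr3 and 2.36 and 1.61 for Fcgr1. Fcgrt led at the label CD11b and Fcer1g at the label CD8. The ratio of Fcer1g to Fcgrt on this scale was 0.341 to 0.674 in the 5 libraries labelled CD11b, against 9.14 to 13.2 in the 5 labelled CD8. Fcgr4 and Fcgr2b, neighbours at the label CD8, did not differ beyond their spread in CD8 KO, where the libraries had 10.6 and 6.03 for Fcgr4 and 7.69 and 8.62 for Fcgr2b. With the longest transcript as the length the mean of Fcgr2b was above that of Fcgr4, at 13.3 in CD8 KO and 9.08 in CD8 WT against 8.30 and 8.97. In CD8 WT the libraries overlapped, with 10.45, 11.88 and 4.913 for Fcgr2b and 7.825, 11.17 and 7.911 for Fcgr4. Fcgr3 and Fcgr1, neighbours at the label CD11b, overlapped in CD11b WT, where Fcgr3 was at its lowest 0.161 and Fcgr1 at its highest 0.216 CPM per kilobase.

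The inhibitory gene held the larger share of the 4 Fc gamma receptor genes at the label CD11b and the smaller one at the label CD8, given here per library with no test. Fcgr2b made up 66.1% and 66.2% of their summed CPM per kilobase in CD11b KO libraries and 64.7%, 68.9% and 65.6% in CD11b WT libraries, against 32.5% and 39.6% in CD8 KO libraries and 33.8%, 26.3% and 18.1% in CD8 WT libraries. The ranges of the labels did not overlap, and they did not with the longest transcript as the length (73.2% to 76.9% at the label CD11b, against 24.8% to 49.5% at the label CD8). The activating genes Fcgr1, Fcgr3 and Fcgr4 summed to 1.29 to 2.19 CPM per kilobase at the label CD11b, against 12.5 to 20.3 at the label CD8. The ratio of Fcer1g to that sum was 9.598 to 19.4 at the label CD11b, against 12.03 to 18.4 at the label CD8, so that the ranges of the chain and its receptors overlapped as a ratio while each of them differed in level.

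**Figure D3:**
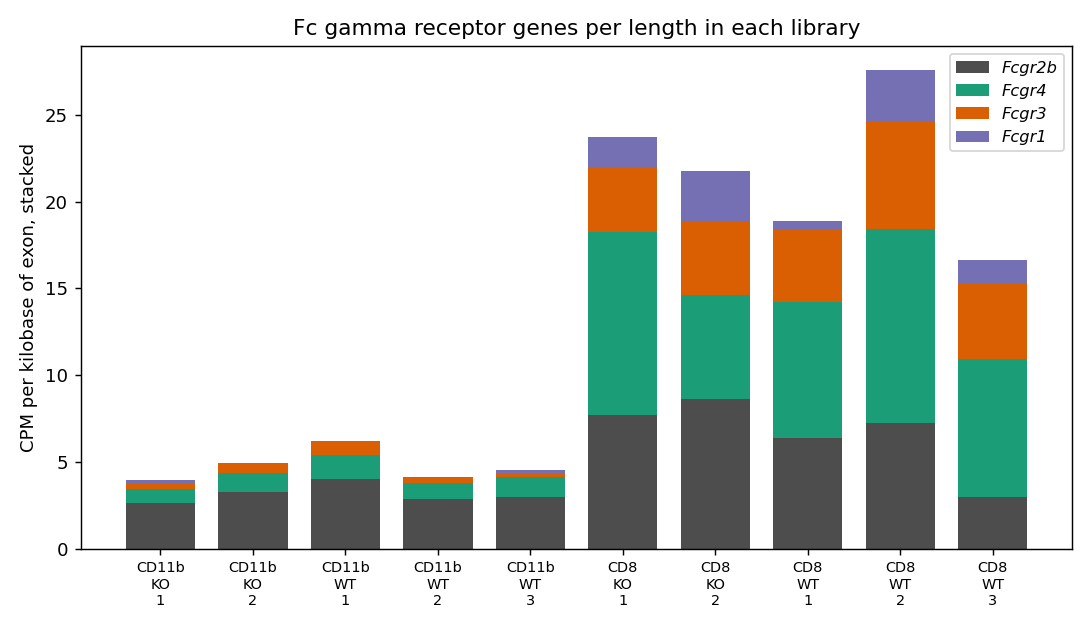
CPM per kilobase of exon of Fcgr2b, Fcgr4, Fcgr3 and Fcgr1 stacked in each of the 10 libraries (bars start at 0). The grey Fcgr2b part is the larger share at the label CD11b (64.7% to 68.9%) and the smaller share at the label CD8 (18.1% to 39.6%).

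Between genotypes, none of the 6 genes passed the threshold at either label. At the label CD11b 0 of 6 were called (edgeR), with 1 at an unadjusted p under 0.05 (6.42% of all genes), and 0.145% of all genes were called. At the label CD8 it was again 0 of 6, with 1 at an unadjusted p under 0.05 (6.52% of all genes), and 0.145% of all genes were called. For the difference of the KO effects 0 of 6 were called, with 0 at an unadjusted p under 0.05 (5.46% of all genes), beside 0.0206% of all genes called. For KO against WT averaged over the labels it was 0 of 6, with 1 at an unadjusted p under 0.05 (8.43% of all genes), beside 0.289% called. DESeq2 and limma-voom also called 0 of 6 in each of these comparisons. A p that misses the threshold does not show equal levels, and the intervals give what the data allow.

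Fcer1g had 11.3 and 21.9 CPM in CD11b KO libraries, against 20.1, 21.0 and 26.4 CPM in CD11b WT libraries, and the groups overlapped. Its log2 fold change, KO over WT, was -0.42 there (95% interval -0.82 to -0.02, unadjusted p 0.042, adjusted p 0.769, edgeR) and -0.17 at the label CD8 (-0.52 to 0.18, adjusted p 0.97). Averaged over the labels it was -0.29 ± 0.13 (SE, adjusted p 0.55); without CD11b KO 2 it was -0.58 (adjusted p 0.0449) and without CD11b KO 1 it was -0.10 (adjusted p 0.908). At the label CD11b these values were -0.99 (adjusted p 0.0716) and -0.03 (adjusted p 1), so the size rests on which of the 2 CD11b KO libraries is kept. The difference of the KO effects was -0.26 (adjusted p 0.954).

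Fcgr2b had 44.6 and 49.9 CPM in CD8 KO libraries, against 37.0, 42.1 and 17.4 CPM in CD8 WT libraries. Both KO libraries were above all 3 WT libraries, with a log2 fold change of 0.55 (95% interval 0.01 to 1.10, unadjusted p 0.046, adjusted p 0.757, edgeR). The B cell marker sums stood at 1051 and 2845 CPM in these KO libraries, against 584 to 1183 CPM in the WT libraries, and their part was not tested. At the label CD11b the value of Fcgr2b was -0.15 (-0.72 to 0.42, adjusted p 0.963), and the difference of the KO effects was -0.70 (adjusted p 0.942).

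The other genes had intervals on both sides of 0. Fcgrt had the narrowest, with a log2 fold change, KO over WT, of -0.09 in CD11b libraries (95% interval -0.41 to 0.23) and of -0.02 in CD8 libraries (-0.35 to 0.31). Fcgr4 had -0.30 (-1.32 to 0.72) and -0.11 (-0.95 to 0.72), and Fcgr3 0.16 (-1.15 to 1.47) and -0.32 (-1.40 to 0.75). Fcgr1 had 0.08 (-2.55 to 2.72) and 0.55 (-1.24 to 2.33), an interval too wide at these counts to bound a change of several fold in either direction. Adjusted p-values of these 4 genes were 0.958 to 1 in both comparisons (edgeR).

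**Figure D4:**
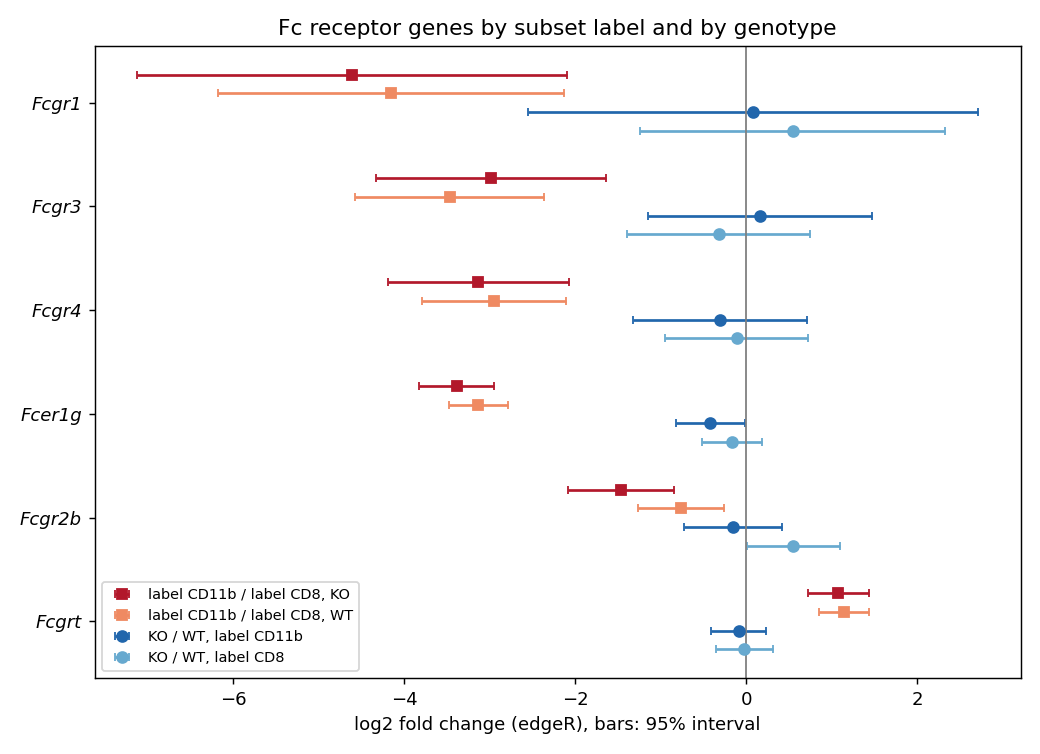
Log2 fold changes of the 6 genes (x axis, points, with 95% intervals as bars) for the label CD11b over the label CD8 in KO and in WT (squares) and for KO over WT at each label (circles). The 12 squares lie clear of 0, with Fcgrt alone on the right, and the 12 circles lie near 0, with intervals that reach it or, for Fcer1g at the label CD11b and Fcgr2b at the label CD8, end just short of it.

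Other receptors that use the Fcer1g chain were lower at the label CD11b as well. Of 16 genes on that list, 9 were tested, among them the 3 activating Fc gamma receptor genes, and 8 were lower in KO and 7 in WT, with 0 higher in each. Of the 6 tested genes other than those 3, 5 were lower in KO and 4 in WT, with medians of -3.88 and -3.65 (genes that had no count in 1 group at their bound). Fcgr1, Clec4d, Clec4e, Lilra5, Lilra6 and Pira2 had at most 0.607 CPM at the label CD11b and passed the filter only through the label CD8. The filter thus fixed the direction of these genes. Outside the 3 activating Fc gamma receptor genes, Clec4n alone was free to go either way. The counts and medians of the 6 other genes are therefore no separate result. The whole list's median log2 fold change, label CD11b over label CD8, was -3.86 in KO and -3.47 in WT. Beside these counts, 12.5% of all genes were lower in KO and 15.7% in WT, and 10.3% and 13.8% higher. Lilra6, of the paired immunoglobulin-like receptor family, was at 0 to 0.607 CPM under the label CD11b, against 4.53 to 10.1 CPM at the label CD8 (log2 fold change -5.86 in KO, adjusted p 0.000101, and -4.68 in WT, adjusted p 2.73e-05, edgeR). Clec4n, which encodes the fungal sensor Dectin-2, was at 0.505 to 4.37 CPM against 12.2 to 13.8 CPM (-3.45 and -2.33). Clec4e, which encodes the mycobacterial glycolipid sensor Mincle, was at 0 to 0.380 CPM against 3.41 to 5.75 CPM. It had no count in the CD11b KO libraries and was there at least 41.4-fold lower than in CD8 KO libraries (a floor of 3 counts for the group). Its log2 fold change in WT was -4.00 (adjusted p 0.00051, edgeR).

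Among 10 tested genes for other Fc-binding receptors, 5 were lower and 0 higher at the label CD11b in KO, and 4 lower and 1 higher in WT, with median log2 fold changes of -0.89 and -1.62. Without CD11b WT 1 and CD8 KO 2 they were 3 lower and 1 higher in KO and 3 lower and 0 higher in WT. Cd300lf, an inhibitory receptor of the CD300 family, is best known for binding lipids and not antibody. Without it 4 of 9 were lower and 0 higher in KO and 3 lower and 1 higher in WT, with medians of -0.66 and -0.88. Over all genes 12.5% were lower and 10.3% higher in KO, and 15.7% and 13.8% in WT. Cd300lf was at 5.75 to 13.1 CPM under the label CD11b, against 94.3 to 114 CPM at the label CD8 (-3.65 in KO, adjusted p 2.44e-10, and -3.45 in WT, adjusted p 7.71e-12, edgeR). Fcmr, the receptor for the constant part of IgM, was at 0.905 to 2.28 CPM against 5.39 to 34.9 CPM (-3.62 and -2.36). Fcrl1 and Fcrl5, receptors of the Fc receptor-like family best known from B cells, had -1.12 and -5.63 in KO and -0.88 and -2.48 in WT. Fcrl5 had at most 0.8298 CPM at the label CD11b and passed the filter only through the label CD8. Fcmr, Fcrl1 and Fcrl5 are genes of B cells, whose marker sums differed between the labels as given above. The part of B cells in the levels of these receptor genes was not tested. Fcer1a, the alpha chain of the high-affinity IgE receptor, had no count in any of the 10 libraries.

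The signalling genes downstream of the gamma chain leaned the same way, by smaller steps. Of 33 tested, 19 were lower and 5 higher at the label CD11b in KO, and 22 lower and 4 higher in WT, with medians of -0.45 and -0.57. The shares over all genes were 12.5% lower and 10.3% higher in KO, and 15.7% and 13.8% in WT. The Src family kinase gene Fgr was at 47.2 to 69.4 CPM under the label CD11b, against 284 to 357 CPM at the label CD8 (-2.33 in KO, adjusted p 1.23e-11, and -2.73 in WT, adjusted p 1.8e-14, edgeR). Syk, the kinase that docks on the ITAM, was at 303 to 369 CPM against 845 to 1054 CPM (-1.50 and -1.46). Malt1, a paracaspase of the Card9 and Bcl10 complex, was at 343 to 403 CPM against 819 to 945 CPM (-1.34 and -1.21). Lcp2, an adaptor, had -1.34 in KO, and Vav2, a guanine nucleotide exchange factor, -1.29 in WT.

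The inhibitory phosphatases and adaptors were split. Of 15 tested, 5 were lower and 3 higher at the label CD11b in KO, and 6 lower and 5 higher in WT, with medians of -0.10 and -0.32. Over all genes 12.5% were lower and 10.3% higher in KO, and 15.7% and 13.8% in WT. Ptpn6, which encodes the phosphatase SHP-1, was at 196 to 240.3 CPM under the label CD11b, against 625 to 695 CPM at the label CD8 (-1.54 in KO, adjusted p 2.3e-10, and -1.68 in WT, adjusted p 9.63e-13, edgeR). Inpp5d, which encodes the phosphatase SHIP1 that docks on the ITIM of the Fcgr2b product, was at 951 to 1014 CPM against 507 to 557 CPM (0.87 in KO, adjusted p 7.35e-08, and 0.90 in WT, adjusted p 9.65e-10, edgeR). Fcgr2b and Inpp5d thus moved in opposite directions between the labels. Pag1, an adaptor that binds the kinase Csk, had -2.16 and -1.56, Inpp4b -1.94 in KO and Csk -0.72 in WT.

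Among 12 tested partners and sorting genes of the neonatal Fc receptor, 4 were higher and 1 lower at the label CD11b in KO, and 5 higher and 1 lower in WT, with medians of 0.26 and 0.22. The lower gene in both was B2m. The shares over all genes were 10.3% higher and 12.5% lower in KO, and 13.8% and 15.7% in WT. Rab11fip1, which links cargo to recycling endosomes, was at 787 to 923 CPM under the label CD11b, against 509 to 558 CPM at the label CD8 (0.67 in KO, adjusted p 2e-05, and 0.69 in WT, adjusted p 4.86e-07, edgeR). Rab11a and Rab11b, small GTPases of recycling endosomes, had 1.02 and 0.52 in KO and 0.69 and 0.65 in WT. Cd74, the invariant chain, had 0.25 in WT (adjusted p 0.00143, edgeR).

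In the 4 genotype comparisons, 0 of the 79 genes on these 5 lists, the activating receptors included, were called by edgeR. At an unadjusted p under 0.05 they were 8 of 79 at the label CD11b (beside 932 of 14528 genes, 6.42%) and 10 of 79 at the label CD8 (947, 6.52%). For the difference of the KO effects they were 10 of 79 (793, 5.46%) and for the average 12 of 79 (1224, 8.43%). The share of the 79 was above that of all genes in each comparison, and this was not tested. DESeq2 called 1 signalling gene lower and 1 inhibitory gene higher in the average over labels and 0 in the other comparisons, and limma-voom called 0.

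**Figure D5:**
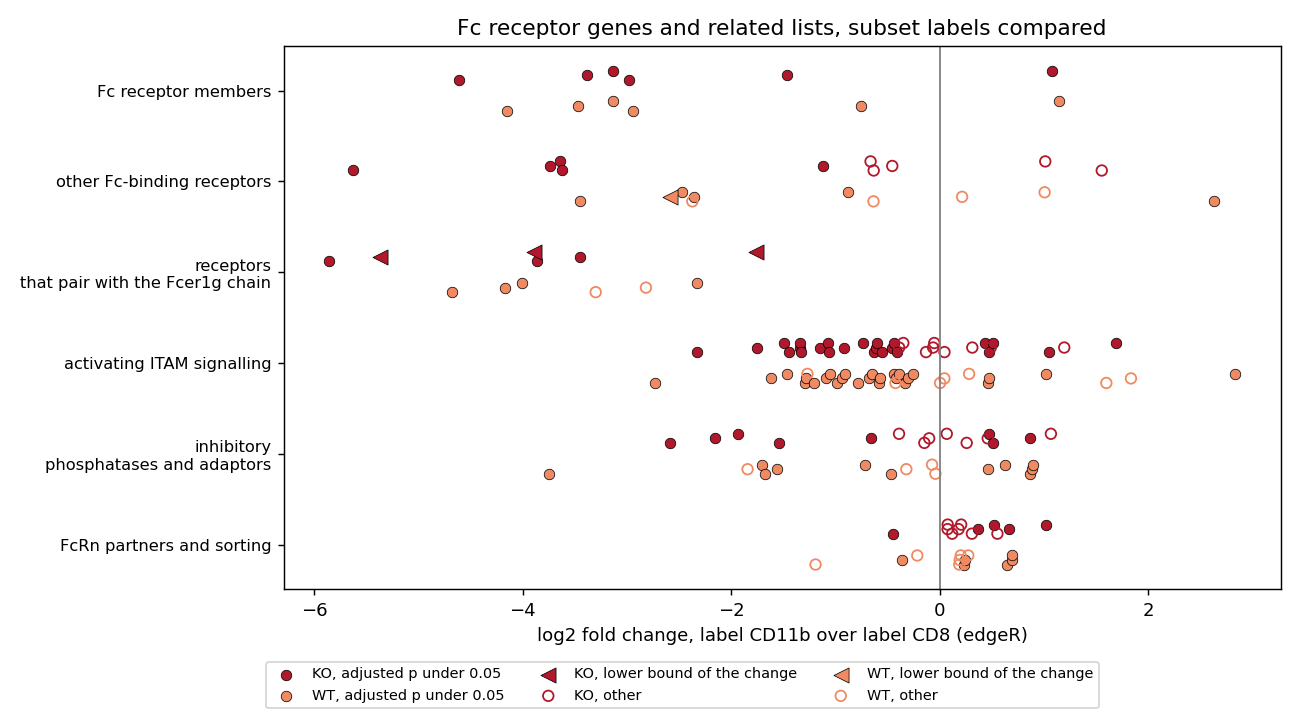
Log2 fold changes, label CD11b over label CD8 (x axis), of the 6 Fc receptor genes and of 5 related lists (rows, without the 6 genes), in KO (dark, upper) and WT (light, lower); filled circles passed an adjusted p under 0.05, open circles did not, and triangles mark genes with no count in 1 group at the bound of their change. The receptors that pair with the Fcer1g chain lie left of 0 in both genotypes, and all of them but Clec4n passed the filter only through the label CD8. Most FcRn partners lie at or right of 0.

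For each Fc receptor gene, the 3 genes most alike over the 10 libraries were found by the root mean square difference of centred log2 CPM, which describes these libraries and shares their depth. Fcgrt had the closest, Rnase6 (0.0950), Pomp (0.100) and Anxa7 (0.105), beside a spread of 0.572 of its own. Anxa7 was at 86.3 to 99.0 CPM in CD11b KO, 85.7 to 94.9 CPM in CD11b WT, 39.1 to 41.6 CPM in CD8 KO and 38.8 to 42.4 CPM in CD8 WT libraries. Fcer1g was followed by Tlr5 (0.210), which encodes the flagellin receptor, Ifi203 (0.224) and Cybb (0.243), which encodes the catalytic subunit of the phagocyte oxidase, beside its own 1.66. Cybb was at 45.3 to 47.5 CPM in CD11b KO, 45.8 to 69.8 CPM in CD11b WT, 414 to 478.5 CPM in CD8 KO and 441 to 494 CPM in CD8 WT libraries. Fcgr4 (own spread 1.457) lay nearest to Ddr1 (0.199), Maml3 (0.222) and Siglecg (0.228), and Fcgr3 (1.638) to Tcp11l2 (0.338), Ltb (0.377) and Bcl9l (0.414). Fcgr2b, with a spread of 0.641 of its own, lay nearest to Cd5l (0.258), a gene of tissue macrophages, Lyz2 (0.303), the lysozyme of myeloid cells, and Fhod1 (0.305). Fcgr1, with its low counts, had the widest distances, to Tmem158 (0.555), Gda (0.717) and Pira2 (0.736), beside its own 2.033. The distances are not scaled to a gene's own spread, so they do not rank how well each gene was matched.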

How the data were processed

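Total RNA of sorted spleen dendritic cells went into a stranded low-input library kit, per the labels' protocols. The submitters' processing notes name STAR 2.5.0a and GRCm38, and the authors deposited raw counts per gene for 53379 genes, unstranded and per strand. Column 4 was used (13.49 to 17.71 times the opposite strand). Reads given to no gene stood in 4 separate lines and were left out: multimapping reads were 21.73% to 25.53% of 27495783 to 34289259 reads, and reads in no annotated feature 33.1% to 41.4%. Symbols came from GENCODE M21 for 53274 genes.

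Using edgeR 4.0.16 under R 4.3.3, all 10 libraries entered 1 quasi-likelihood fit of 4 groups (TMM, filterByExpr by group, Benjamini-Hochberg over 14528 genes, threshold 0.05; dispersion 0.086; degrees of freedom 6 residual, 16.1 prior). CPM used TMM library sizes, and CPM per kilobase the summed exon length. Groups were kept as labelled; the cells came from individual mice, and the labels name no batch. Alternatives were RLE scaling, other filters, unstranded counts, DESeq2 1.42.0, limma 3.58.1 (voom), only the libraries compared, a replicate block and each library left out. The members and lists were chosen with earlier results of these data known; of each list, up to 4 genes with the smallest p were named, with the 3 genes most alike to each member. One gene that this rule names is not reported here. Of 210 list entries 4 matched no gene (Pira1, Pira6, Pira7 and Pira11). The reads carried no molecular identifiers, so a floor covers no more than the error of counting.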

Additional observations from a re-analysis of the deposited data

Results flagged for a closer look

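Counts on the strand opposite to 2 of the genes, which no comparison used, were above the WT libraries in KO libraries at 1 label each and not at the other. Scaled to the library total as CPM, they averaged 0.190 CPM for Fcgr3 at the label CD11b in KO libraries (0.299 and 0.0814), against 0 in the 3 WT libraries. They averaged 0.316 CPM for Fcgr4 at the label CD8 in KO libraries (0.0848 and 0.547), against 0 in the 3 WT libraries. At the other label the groups overlapped: Fcgr3 at the label CD8 had 0 and 0.0912 CPM in KO libraries, against 0.4225, 0 and 0.0957 CPM in WT libraries, and Fcgr4 at the label CD11b had 0.498 and 0 CPM in KO libraries, against 0.695, 0 and 0 CPM in WT libraries. Each value rests on a few reads, and the cause was not tested. Of all the Fc receptor genes at both labels, only these 2 cases had each KO library above every WT library. They are reported for that order alone. With so few libraries in a group such an order can arise by chance, so no KO effect is read from it. How often it occurs over all genes was not tested. No group held 4 or more libraries, so single libraries could not be set against their group's range.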

How the results depend on the processing

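All 6 genes kept their direction between the labels under every alternative run, and the calls that a left-out library ended are named with the results. Members called in the average over labels ranged from 0 to 1 when each library was left out. Genotype values that changed sign were all uncalled. Without CD11b WT 1 and CD8 KO 2, Fcgr1 had -0.13 at the label CD11b and -0.002 on average, Fcgr2b 0.028 at the label CD11b, Fcgr3 0.19 on average and Fcgr4 0.24 at the label CD8 and 0.051 on average. Fcgr1 at the label CD11b had -0.56 with limma-voom, and Fcgr3 on average had 0.096 with limma-voom and 0.043 with unstranded counts. With each library left out, KO over WT at the label CD11b ranged from -4.43 to 1.52 for Fcgr1, -0.32 to 0.021 for Fcgr2b, -0.33 to 0.79 for Fcgr3 and -0.24 to 0.051 for Fcgrt; at the label CD8 from -0.57 to 0.24 for Fcgr4 and -0.13 to 0.086 for Fcgrt. The average ranged from -1.94 to 1.03 for Fcgr1, -0.33 to 0.23 for Fcgr3 and -0.13 to 0.015 for Fcgrt, and the difference from -4.98 to 0.98 for Fcgr1, -0.006 to 1.11 for Fcgr3, -0.54 to 0.27 for Fcgr4, -0.82 to 0.13 for Fcer1g and -0.22 to 0.072 for Fcgrt.

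The number of all genes called between genotypes moved by more than 1.5 times under some alternatives. Between the labels that number stayed within 1.5 times under every alternative run. At the label CD11b, 21 became 71 with no filter, 42 with DESeq2, 13 with only the libraries compared and 13 without CD11b WT 1 and CD8 KO 2. At the label CD8, 21 became 142 with no filter, 59 with DESeq2, 63 with limma-voom and 63 with only the libraries compared, and 7 to 53 with each library left out. For the difference, 3 became 41 with no filter, 6 with unstranded counts, 12 with DESeq2 and 8 with the replicate block, and 3 to 8 with each library left out; for the average, 42 became 175 with no filter and 98 with DESeq2, and 17 to 77 with each library left out. The cause was not tested.

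Libraries that share a number within a genotype correlated in their deviations from the group means at 0.018 to 0.049 (5 pairs), under the 0.1 required for pairing. Among WT libraries each correlated best with its own number across labels, which did not hold across genotypes, and in KO the deviations of 2 libraries mirror each other. The replicate block left Fcgr3 at -0.012 at the label CD11b and changed no other direction or call of the 6 genes. For the label comparisons it joined libraries of the same genotype and number. For the genotype comparisons it joined KO and WT libraries of the same number, which are different mice, so there it is no check of pairing. Fits without a library kept the genes tested with all 10. Fcgr1 and Fcgr3 rest on few counts at the label CD11b, which limits how far their genotype effects can be bounded.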
